A study of Mus musculus with 8 samples.

Results

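Long noncoding RNAs (lncRNAs) are transcripts that do not encode a protein, are often spliced, and in many cases stay in the nucleus, where single-nucleus sequencing also counts their unspliced form. Described here are 6 of them, of 32285 genes counted, chosen by their measured fold change, since their level was lower in cardiomyocytes of Tafazzin-knockout mice: Rmst, Gm20757, Gm26862, Gm24474, Gm19689 and Gm30382. They were found by symbol, and all 6 were among the 18501 genes tested in cardiomyocytes. Since their choice rests on the difference between genotypes in cardiomyocytes, that difference is given as a description, without a test. Rmst, the rhabdomyosarcoma 2 associated transcript, is known for its part in the making of neurons, where it works with the transcription factor SOX2, and it hosts microRNAs. The other 5 carry placeholder names, and no role is stated for them here.

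The hearts were taken whole from male mice at 9 weeks, 4 of them WT and 4 Taz-KO, and each gave 1 single-nucleus library. Tafazzin, encoded by the X-linked gene Taz, is the mitochondrial acyltransferase that remodels cardiolipin, and its loss causes Barth syndrome in humans. The labels give the genotype as WT or KO, and neither the strain nor the part of Taz that the allele removes is given in the sources used here. The libraries are named below by genotype and mouse number (WT 4686, 4909, 5355 and 5356; Taz-KO 4685, 4910, 5300 and 5301).

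Between 20025456 and 348080773 UMIs (unique molecular identifiers, 1 per captured RNA molecule) were counted per library. Taz-KO 4685 and 5301 stood apart, with 3492 and 5571 barcodes against 21190 to 36308 in the others. After filters 151264 barcodes were kept as nuclei, more than the study kept after its own filters and correction for free RNA. Mitochondrial UMIs made up 1.57% to 23.7% of the UMIs of a library. Of the kept nuclei 29545 were cardiomyocytes in 8 clusters, with between 175 (Taz-KO 4685) and 7286 (Taz-KO 4910) per mouse. All 7 cardiomyocyte markers, among them Ryr2 and Ttn, were raised in each of these clusters. Between 3.59% and 4.79% of the barcodes of a library also occurred in another library. In cardiomyocytes Taz was at 48.5 to 57.7 CPM (a gene's UMIs over all UMIs of the summed nuclei, in ppm) in WT and at 23.6 to 40.8 CPM in Taz-KO (log2 fold change -0.66 with a standard error of 0.18; edgeR gave a Benjamini-Hochberg adjusted p = 0.0281). The counts do not show whether the Taz UMIs left come from a part outside the deletion.

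The 6 genes lie at 5 places in the genome (GENCODE vM21 on GRCm38, the build of the files). Rmst (ENSMUSG00000112117, chr10:92071037-92165170, minus strand) and Gm20757 (ENSMUSG00000098040, chr10:92171301-92375373, minus strand) are neighbours on the same strand, both annotated as lincRNA. Gm20757 ends 6.13 kb upstream of the Rmst gene. Gm26862 (ENSMUSG00000097644, chr7:93006982-93104789, plus strand) is annotated as sense overlapping and contains Fam181b on the same strand and Gm9934 on the other. Gm24474 (ENSMUSG00000114005, chr12:70650182-70693780, plus strand) is a lincRNA that contains Gm48866 on the same strand and Gm32369 on the other. Gm19689 (ENSMUSG00000117399, chr17:83033594-83078426, minus strand) is a processed transcript named AC134555.1 in this annotation, and Gm29052 overlaps it on the other strand. Gm30382 (ENSMUSG00000106515, chr3:149284418-149445301, minus strand) is a lincRNA with Gm5149 inside it on the other strand. The genes span 43.6 kb (Gm24474) to 204 kb (Gm20757), while the longest annotated spliced transcript of each has 469 bases (Gm24474) to 2891 bases (Rmst). Reads in introns were counted, and the setting for strand is not stated in the sources used here, so the counts of overlapping genes are uncertain where reads could fall in either.

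RefSeq promoter windows of 300 bases (250 before and 50 after the start, GRCm38.p6) were available for 3 of the 6. The start is that of RefSeq, which for Gm20757 is also the GENCODE start. For Gm24474 (chr12:70649749) and Gm30382 (chr3:149445599) it lies upstream of the GENCODE start, and the window ends before the GENCODE gene begins. The windows are shown because these genes fell together, and capitals mark exact matches to 5 short motifs searched on both strands. The TATA box was searched as TATAAA. The motif bound by GATA factors was searched as AGATAA. The motif of TEAD factors was searched as GGAATG. The core of the amino acid response element was searched as TGATGNAA, and a MEF2-like motif was searched as well. These promoters lie at chr10:92375324-92375623 (Gm20757, minus strand), chr12:70649499-70649798 (Gm24474, plus strand) and chr3:149445550-149445849 (Gm30382, minus strand):
Gm20757 promoter: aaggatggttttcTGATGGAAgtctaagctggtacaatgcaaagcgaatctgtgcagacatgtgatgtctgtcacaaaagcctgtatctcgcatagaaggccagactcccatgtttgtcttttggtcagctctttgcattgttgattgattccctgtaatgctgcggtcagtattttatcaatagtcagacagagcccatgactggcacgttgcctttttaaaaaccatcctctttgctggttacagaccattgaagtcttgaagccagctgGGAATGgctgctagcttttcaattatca
Gm24474 promoter: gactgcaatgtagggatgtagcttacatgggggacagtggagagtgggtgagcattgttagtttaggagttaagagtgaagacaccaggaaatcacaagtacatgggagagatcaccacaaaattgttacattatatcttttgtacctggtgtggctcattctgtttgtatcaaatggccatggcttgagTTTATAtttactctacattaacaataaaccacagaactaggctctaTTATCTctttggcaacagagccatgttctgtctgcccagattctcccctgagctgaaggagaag
Gm30382 promoter: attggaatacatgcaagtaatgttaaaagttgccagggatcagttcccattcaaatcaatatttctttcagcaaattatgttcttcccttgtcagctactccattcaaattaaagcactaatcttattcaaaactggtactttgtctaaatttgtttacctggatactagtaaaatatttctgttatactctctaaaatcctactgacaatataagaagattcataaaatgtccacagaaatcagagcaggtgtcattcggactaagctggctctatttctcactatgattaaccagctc

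The Gm20757 window held 1 match each to the amino acid response core and the TEAD motif, the Gm24474 window 1 match each to the TATA box and the GATA motif, both on the opposite strand, and the Gm30382 window none. No motif occurred in more than 1 of the 3 windows. Among 32851 promoters of this length, the amino acid response core occurred in 3.97%, the TEAD motif in 14.7%, the TATA box in 13.6%, the GATA motif in 11.2% and the MEF2-like motif in 3.69%. A match says only that these letters are there. For the other 3 genes the first 100 bases of the longest GENCODE transcript are shown. They begin an annotated model, and the start was not measured in these nuclei. Other annotated starts lie elsewhere for Rmst (chr10:92165170, GENCODE gene) and Gm19689 (chr17:83078225, RefSeq). The stretches lie at chr10:92164649-92164748 (Rmst), chr7:93006982-93007081 (Gm26862) and chr17:83078327-83078426 (Gm19689), each within a single exon:
Rmst transcript 5′ end: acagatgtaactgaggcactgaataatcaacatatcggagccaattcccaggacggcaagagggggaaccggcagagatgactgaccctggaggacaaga
Gm26862 transcript 5′ end: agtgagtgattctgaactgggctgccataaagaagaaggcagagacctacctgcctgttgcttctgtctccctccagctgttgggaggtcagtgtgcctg
Gm19689 transcript 5′ end: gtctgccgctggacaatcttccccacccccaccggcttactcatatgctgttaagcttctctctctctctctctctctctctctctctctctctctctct

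The Gm19689 stretch runs into a repeat of c and t. Rmst also hosts a pair of microRNA genes on its own strand, whose mature products are shown because a loss of Rmst RNA concerns their host transcript (RefSeq, GRCm38.p6). Capitals mark the seed, bases 2 to 8, which pairs with target messenger RNAs:
miR-135a-5p: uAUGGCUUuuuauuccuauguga
miR-135a-2-3p: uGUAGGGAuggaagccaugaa
miR-1251-5p: aCUCUAGCugccaaaggcgcu
miR-1251-3p: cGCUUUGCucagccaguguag

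The 4 seeds differ from each other. miR-135a lies at chr10:92072104-92072163 and miR-1251 at chr10:92137152-92137210, both inside the Rmst gene. The libraries capture polyadenylated RNA, so no level of these microRNAs was measured.

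In cardiomyocytes 5 of the 6 RNAs were at 5.68% to 6.25% of their WT level in Taz-KO hearts, and Gm30382 was at 27.4%. Rmst was at 47.8, 42.4, 46.9 and 45.7 CPM in WT 4686, 4909, 5355 and 5356, and at 1.19, 2.82, 3.23 and 3.14 CPM in Taz-KO 4685, 4910, 5300 and 5301 (scaled with TMM factors, as are the next levels). The means were 45.7 ± 2.37 and 2.60 ± 0.951 CPM (SD, n = 4 mice each), a log2 fold change of -4.06 (standard error 0.23). The WT mice differed little from each other, and the lowest of them lay far above the highest Taz-KO mouse.

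Its neighbour Gm20757 was at 137, 131, 124 and 198 CPM in WT hearts, in the same order, and 5.63, 9.96, 9.60 and 10.8 CPM were measured in Taz-KO hearts. WT 5356 was the highest of its group, and no mouse of a genotype came near the other genotype. The log2 fold change was -4.02 (standard error 0.24), close to that of Rmst. The ratio of Gm20757 to Rmst UMIs ranged from 2.64 to 4.33 in WT and from 2.97 to 4.71 in Taz-KO, so that the ranges of this ratio overlapped between genotypes while both RNAs fell.

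Gm26862 was at 247, 189.5, 244 and 337 CPM in WT and at 13.5, 12.9, 13.5 and 21.0 CPM in Taz-KO (log2 fold change -4.07, standard error 0.25). Gm24474 was at 338, 266, 278 and 423 CPM in WT and at 10.8, 25.96, 18.3 and 23.9 CPM in Taz-KO (log2 fold change -4.04, standard error 0.29). In both, WT 5356 was the highest WT mouse, and the genotypes stayed far apart. Gm19689 was at 49.6, 43.7, 28.7 and 42.1 CPM in WT and at 0.853, 2.98, 3.40 and 3.02 CPM in Taz-KO (log2 fold change -3.89, standard error 0.31). Taz-KO 4685, with 175 cardiomyocytes, gave 5 UMIs of Gm19689 and 7 of Rmst, so its values for these RNAs rest on few counts.

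Gm30382 was at 454, 427, 284 and 503 CPM in WT and at 99.0, 150.3, 83.2 and 125 CPM in Taz-KO. The means were 417 ± 93.9 and 114 ± 29.5 CPM (SD, n = 4 each), a 3.65-fold difference (log2 fold change -1.87, standard error 0.24), against 16.0-fold to 17.6-fold in the other 5. It thus kept the largest part of its WT level among the 6.

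Every Taz-KO mouse was below every WT mouse in 6 of the 6 RNAs, which their choice makes likely; this holds for 9.01% of the 18501 genes tested. At an adjusted p below 0.05 from edgeR, 14.7% of the genes differed between genotypes and 6.11% were lower in Taz-KO. By log2 fold change the 6 took ranks 12, 14, 16, 17, 21 and 232 from the lowest. Among the 6531 genes with a mean of at least 20 CPM in WT, the first 5 ranked 2, 3, 4, 5 and 7 and Gm30382 ranked 73. In the cardiomyocytes Myl2 and Myl3, the ventricular markers, were lower too (median log2 fold change -1.19, both with an adjusted p below 0.05 from edgeR). The summed level of each list of markers of other cell types overlapped between genotypes, and 2 lower and 1 higher gene were called among them. Fibroblast markers summed to 837 to 4581 CPM in WT and to 250 to 3354 CPM in Taz-KO. The part of these markers in the results was not tested.

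**Figure D1:**
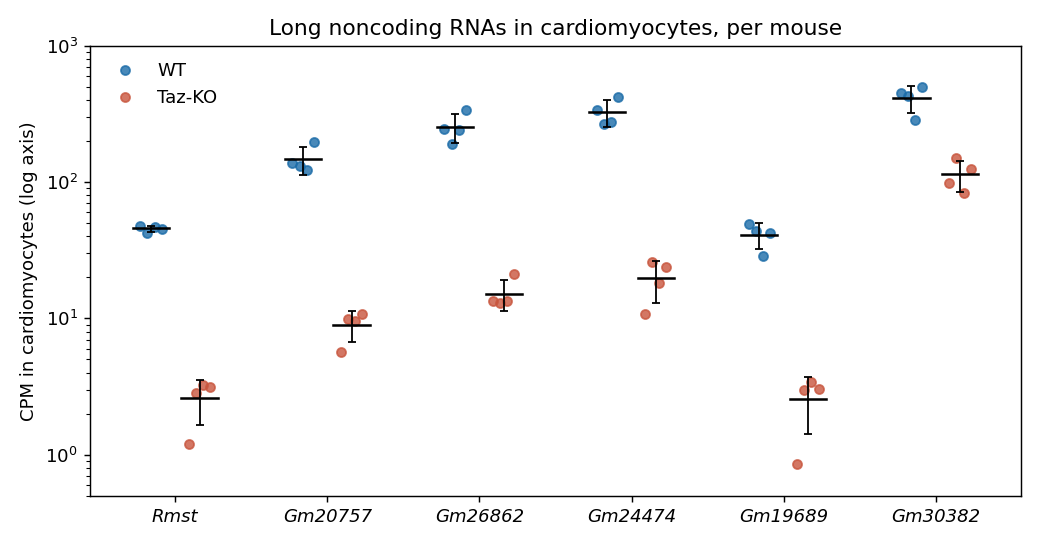
Level of each RNA in cardiomyocytes (CPM with TMM factors, log axis), with 1 point per mouse, the mean as a bar and the SD as whiskers (n = 4 mice per genotype). The Taz-KO points lie below the WT points in each gene, with the smallest gap in Gm30382, where the highest Taz-KO mouse is at 150.3 CPM and the lowest WT mouse at 284 CPM.

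The share of nuclei in which each RNA was found fell in the same way. Without thinning, 28.5% ± 4.44 (SD, n = 4 mice) of WT cardiomyocytes and 2.32% ± 0.516 of Taz-KO cardiomyocytes had a UMI of Rmst. For Gm24474 these shares were 78.5% ± 5.21 and 16.3% ± 4.84, and for Gm30382 84.5% and 47.9%. Depth differs between nuclei and libraries, so each nucleus was also thinned to 1000 UMIs (23 Taz-KO cardiomyocytes with fewer were left out), at which Rmst was found in 3.83% ± 0.383 and 0.260% ± 0.115, Gm24474 in 23.5% ± 2.53 and 2.06% ± 0.633, and Gm30382 in 29.4% and 10.3%. In the cardiomyocytes with at least 5000 UMIs, thinned to that number (1238 WT and 1935 Taz-KO cardiomyocytes were shallower and left out), between 96.0% and 98.5% of those of a WT mouse had a UMI of at least 1 of the 6 RNAs, and between 40.2% and 51.0% of those of a Taz-KO mouse. The ranges of the genotypes lay far apart. Gm30382 was the RNA found most often in Taz-KO. Of the same Taz-KO nuclei, 59.0% to 67.9% per mouse had no UMI of Gm30382, against 89.3% to 99.5% for each of the other 5 RNAs.

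How the RNAs varied between WT cardiomyocytes was described mouse by mouse, in nuclei with at least 5000 UMIs thinned to that number. The variance over the mean, which is 1 for random sampling of a constant level, was between 1.30 and 1.46 for Rmst, 1.58 and 1.84 for Gm20757, 1.501 and 1.71 for Gm26862, 1.76 and 2.15 for Gm24474, 1.35 and 1.38 for Gm19689, and 1.83 and 2.18 for Gm30382. Nuclei without a UMI were more frequent than a Poisson law of the same mean gives: for Gm24474 between 30.3% and 40.5% of nuclei had none, against 16.6% to 26.7% under that law. In the counts of the same nuclei before thinning, which also vary with depth, the 10% of nuclei with the most UMIs of an RNA held 35.6% to 40.3% of the Gm24474 UMIs and 54.5% to 63.9% of the Rmst UMIs. This share is larger by sampling alone for an RNA with fewer UMIs, such as Rmst, so it does not rank the RNAs by their variation. Before thinning, single nuclei reached 64 UMIs of Gm24474 and 85 of Gm30382.

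Rmst and Gm20757, the neighbours on chromosome 10, were found in the same WT nuclei 1.45 to 1.58 times as often as the product of their shares. In WT 4686, for example, 9.66% of nuclei had both, against a product of 6.51%. For the other 14 pairs of the 6 RNAs this ratio was between 0.97 and 1.11 in the WT mice, near that of RNAs found independently. In Taz-KO the ratio of Rmst and Gm20757 was between 5.11 and 9.85, on far fewer nuclei: both were found in 0.134% to 0.445% of them. The ratio can reach higher values where the shares are low, so it is not on the same scale in WT and Taz-KO. The other 14 pairs ranged from 0 to 6.96 there. In Taz-KO 4910, with the most nuclei, they ranged from 1.16 to 1.88, above the WT range. In the other Taz-KO libraries some of them lay below the WT range. Within each of the 4 Taz-KO libraries Rmst and Gm20757 had the highest ratio of the 15 pairs. It was 7.38 against at most 1.88 in Taz-KO 4910, and 9.85 against at most 6.96 in Taz-KO 4685. In Taz-KO 4685 only 166 nuclei were deep enough, and both RNAs were found in 0.134% of them. The ratios of that library thus rest on almost no nuclei and add little.

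Across WT cardiomyocyte nuclei, the RNAs most like each of the 6 in Pearson's r of normalized log levels were looked for among 7798 genes found in at least 10% of nuclei. For Rmst this was Gm20757 and for Gm20757 it was Rmst (mean r over the 4 WT mice 0.34), followed for both by Hs3st5, which encodes a heparan sulfate sulfotransferase, Prune2 and Cpeb3. Gm35330 was the fifth gene for Rmst. For Gm24474 the gene most alike was Gm32369, inside it on the other strand (0.35), then Rgs6, Palld, Angpt1 and Dlc1 (0.21 to 0.17). Gm26862 was most like Gm9934, inside it on the other strand (0.21), then Sox6, a transcription factor, Tacc2, Adk and Fhod3, a formin of the sarcomere (0.19 to 0.17). Gm30382 was most like Tnni3k, a cardiac kinase (0.23), then Fgf13, Ank2, Pde4d and Dlc1 (0.21 to 0.19). For Gm19689 no gene exceeded 0.09 (Slc8a1, the sodium-calcium exchanger), then Ctnna3, Cpeb3, Camta1 and Gm31251. These nuclei share libraries and depth, the correlations are low, and they are given as a description.

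The levels were also compared within the cardiomyocyte clusters, whose nuclei are those that chose the RNAs. Of the 8 clusters, built without the 6 RNAs among the variable genes, every Taz-KO mouse was below every WT mouse in 47 of the 48 combinations of cluster and RNA (mice with at least 10 nuclei). Over all 18501 genes this held in 4.88% of the combinations of cluster and gene, from 2.78% to 7.17% in single clusters. Clusters 20 and 26 had 3 mice in 1 of the genotypes and cluster 22 had 2, which makes such a separation easier. The exception was Gm30382 in cluster 26, which had a high score for atrial markers. Outside Gm30382, the log2 ratio of the group means was between -5.13 (Gm26862 in cluster 6) and -1.57 (Gm24474 in cluster 26), and for Gm30382 between -1.83 and -0.76. The genotypes were not spread alike over the clusters: cluster 5 held 35.5% to 49.2% of WT and 15.8% to 27.4% of Taz-KO cardiomyocytes per mouse, cluster 10 held 4.57% to 6.72% and 22.2% to 35.3%, and cluster 20 held 0.157% to 0.662% and 2.80% to 14.3%.

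WT levels differed between clusters, and not in the same way for each RNA. In cluster 26 the WT means were 70.8 ± 24.9 CPM for Gm26862 and 15.4 ± 4.82 CPM for Rmst (before TMM scaling, SD, n = 4 mice), against 272 ± 35.6 and 48.8 ± 6.28 CPM in cluster 5, the largest. Gm26862, Rmst and Gm20757 were lower in cluster 26 than in cluster 5 in 4 of 4 WT mice, whereas Gm24474 was lower in 1 of 4, at 336 ± 89.7 against 354 ± 33.1 CPM. In cluster 10 the order was another: Rmst was at 51.7 ± 5.73 CPM, near its level in cluster 5, but Gm24474, at 168 ± 29.2 CPM, was at 37.7% to 52.9% of its cluster 5 level in the WT mice. Gm30382 was at 43.0% to 50.2% there. These are descriptions, as the clusters were made from the same nuclei.

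The level left in Taz-KO also differed. In cluster 26 Gm24474 was at 113 ± 78.5 CPM in Taz-KO (SD, n = 3 mice), against 10.5 ± 3.32 CPM (n = 4) in cluster 10 and 27.3 ± 10.9 CPM in cluster 5. The 3 mice were at 67.0 (4910), 67.9 (5300) and 203 CPM (5301, with 39 nuclei), and without Taz-KO 5301 the mean was 67.4 CPM, an alternative chosen after seeing the data. Cluster 20, with 1527 Taz-KO and 61 WT nuclei, kept 47.8 ± 18.8 CPM of Gm26862, more than the 22.9 ± 10.3 CPM of cluster 5, and 258 ± 63.4 CPM of Gm30382. Gm26862 was higher in cluster 20 than in cluster 5 in Taz-KO 4685 (75.6 CPM on 14 nuclei), 4910 and 5300. In Taz-KO 5301 it was at 35.7 CPM in cluster 20 and 37.2 CPM in cluster 5. The spread between mice was large in cluster 26, and no test was made.

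**Figure D2:**
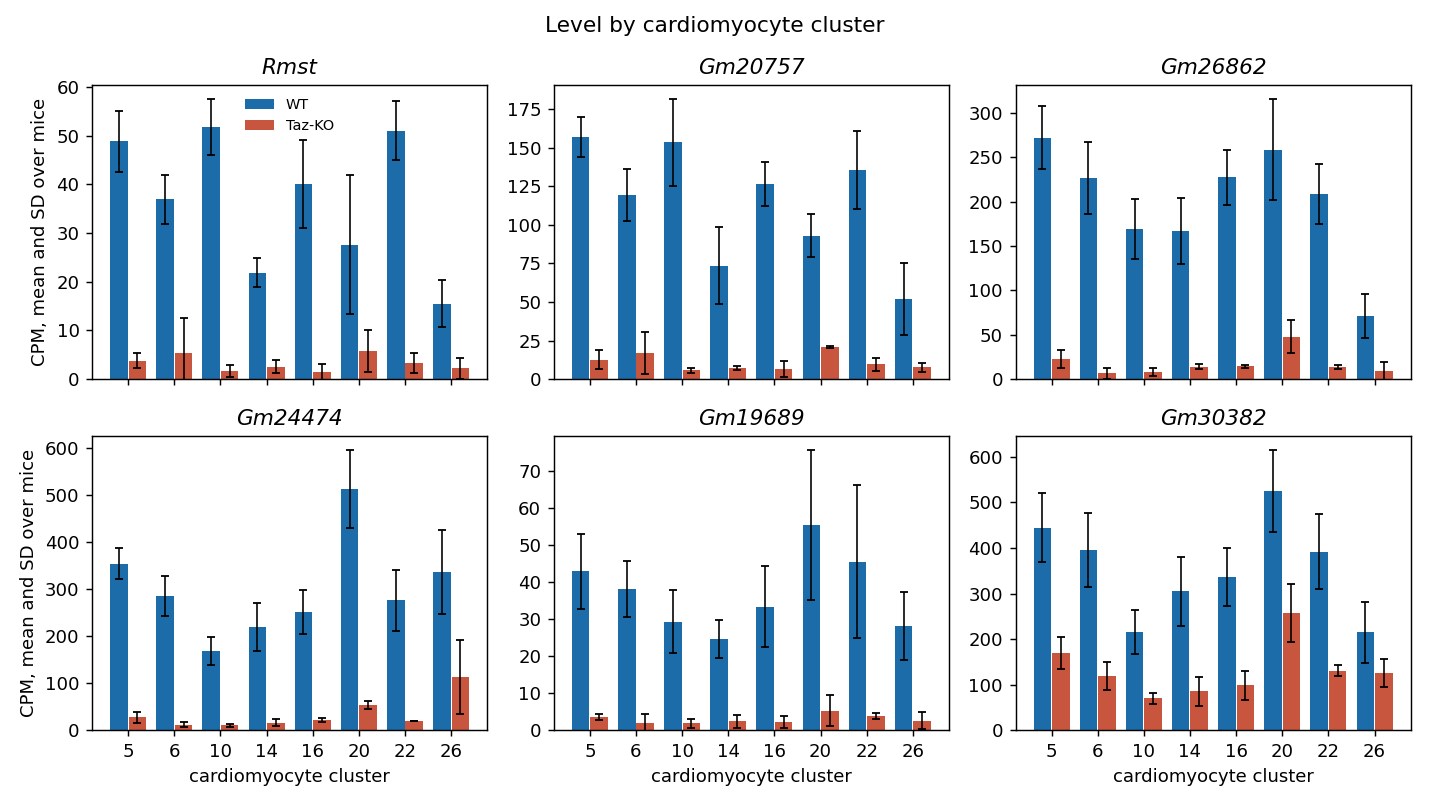
Mean level (CPM) of each RNA in the 8 cardiomyocyte clusters, WT beside Taz-KO, with whiskers for the SD over mice (2 to 4 mice per bar, each with at least 10 nuclei). Taz-KO bars lie below the WT bars of the same cluster, Gm30382 keeps 258 CPM in Taz-KO in cluster 20, Gm26862 and Rmst are lowest in WT in cluster 26, at 70.8 and 15.4 CPM, and Gm24474 is at 113 CPM in Taz-KO there, or 67.4 CPM without Taz-KO 5301.

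Outside cardiomyocytes the 6 RNAs were found at far lower levels. In WT fibroblasts Rmst was at 3.94 ± 0.792, Gm20757 at 13.9 ± 2.57, Gm26862 at 21.5 ± 4.01, Gm24474 at 32.9 ± 8.14 and Gm30382 at 38.3 ± 12.2 CPM (SD, n = 4 mice). In droplet data, free RNA can place a UMI in a nucleus that does not express the gene. The 10% of barcodes with the fewest UMIs in each library held more of these RNAs: for Gm26862, 32.0 to 79.6 CPM in WT, against 17.7 to 26.8 CPM in WT fibroblasts. Over fibroblasts, endothelial cells, macrophages and pericytes, 95 of 96 WT levels (6 RNAs, 4 cell types, 4 mice) and 68 of 96 Taz-KO levels were below those of that library's lowest-UMI barcodes. Some of the other Taz-KO levels were ties at 0, as for Gm19689 in Taz-KO 4685 and 5301, and not higher than in the lowest-UMI barcodes. These barcodes also held Ryr2 and Ttn, at 8574 to 12381 CPM together in WT, and in every library but Taz-KO 5301 most of them were kept as nuclei, so they are not free RNA alone.

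The RNAs were also set against Ryr2 and Ttn, which cardiomyocytes express. Per 1000 UMIs of Ryr2 and Ttn, WT cardiomyocytes had 5.81 to 7.61 UMIs of Gm26862, WT fibroblasts 3.49 to 6.64, WT endothelial cells 3.77 to 7.09 and the lowest-UMI barcodes of WT 3.46 to 6.43. In Taz-KO the range was 0.395 to 0.542 in cardiomyocytes, 0.277 to 0.439 in fibroblasts, 0.238 to 1.11 in endothelial cells and 0.216 to 0.704 in the lowest-UMI barcodes. The ranges thus overlapped between WT cardiomyocytes and the other WT cell types. Within libraries, the ratio of Gm26862 was above that of the cardiomyocytes in 1 of 4 WT mice, WT 5356. This held for fibroblasts, endothelial cells and the lowest-UMI barcodes, and in the other WT mice the ratio was below. Among the Taz-KO mice the ratio of Gm26862 was above in 3 of 4 for endothelial cells, 1 of 4 for the lowest-UMI barcodes and 0 of 4 for fibroblasts. For Gm30382 in macrophages the ratio was above that of the cardiomyocytes of the same library in 8 of 8 mice, the only RNA and cell type where this was so, at 9.54 to 17.3 in WT, against 8.73 to 13.1 in WT cardiomyocytes, and at 4.28 to 16.2 in Taz-KO, against 2.77 to 4.61. In endothelial cells it was above in 5 of 8 mice, 4 of them Taz-KO, as was Rmst, and the same count was found for Gm26862 and Gm24474 in macrophages.

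**Figure D3:**
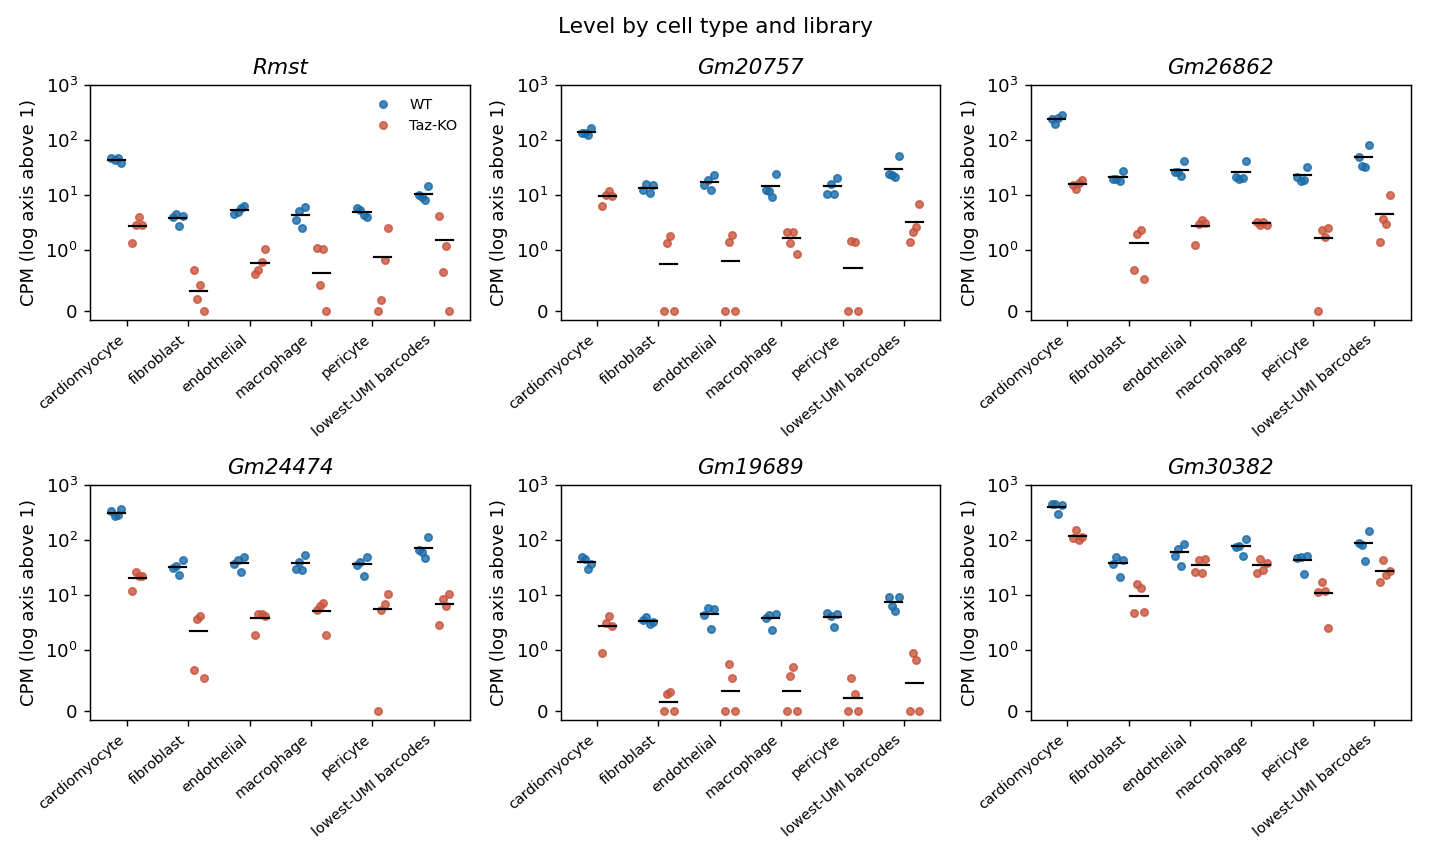
Level of each RNA (CPM before TMM scaling, on an axis that is linear below 1 and logarithmic above) in cardiomyocytes, 4 other cell types and the lowest-UMI barcodes, with 1 point per library and the mean as a bar. In WT the other cell types lie far below the cardiomyocytes, as with Gm26862 in fibroblasts at 17.7 to 26.8 CPM. In Taz-KO the ranges of Rmst overlap, at 0 to 2.51 CPM in pericytes and 1.31 to 3.88 CPM in cardiomyocytes. The 2.51 CPM, in Taz-KO 5301, rests on few counts, and within each Taz-KO library Rmst was lower in pericytes than in cardiomyocytes.

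The difference between genotypes was seen in these low levels too. The nuclei are others than those that chose the RNAs, but the mice and libraries are the same, so these tests are not independent support. With edgeR, 5 of the 6 were lower in Taz-KO fibroblasts at an adjusted p below 0.05 (0.0919% of 17404 genes tested were), 5 of 6 in endothelial cells (0.0927% of 16177), 4 of 6 in macrophages (0.0993% of 15105), 3 of 5 tested in pericytes (0.0224% of 13392), 3 of 4 in mesothelial cells (0.0323% of 12396) and 3 of 4 in lymphatic endothelial cells (0.0259% of 11562). In adipocytes none passed the filter on low counts. The RNAs not tested fell below that filter, among them Rmst and Gm19689 in mesothelial and lymphatic endothelial cells and Gm19689 in pericytes. Those tested there could pass it through their WT level alone, so the counts do not support a difference in these types beyond the values themselves. Gm26862 in fibroblasts went from 21.5 ± 4.01 to 1.30 ± 0.834 CPM (log2 fold change -3.63 with a standard error of 0.31, adjusted p = 0.00181 from edgeR). Gm30382 passed in none of these types, with a log2 fold change of -1.85 in fibroblasts (adjusted p = 0.107 from edgeR), -0.84 in endothelial cells (0.517) and -1.17 in macrophages (0.163). These calls numbered 23 in all. With free RNA subtracted at an assumed share of 0.2 the number was 3, all in endothelial cells, and without Taz-KO 4910 it was 4, 1 in fibroblasts and 3 in endothelial cells. It was 8 without Taz-KO 5300 and 14 without WT 4686 or without WT 4909. Over all genes, lower or higher, fewer calls were made in these fits too. In fibroblasts, endothelial cells and macrophages 72, 66 and 56 genes were called in the fit reported. The numbers were 0, 8 and 0 with free RNA subtracted, 7, 20 and 3 without Taz-KO 4910, and 22, 13 and 3 without Taz-KO 5300. They were 13, 11 and 8 without WT 4686, and 20, 25 and 5 without WT 4909. The smaller counts are thus not particular to the 6 RNAs.

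The share of nuclei with a UMI, thinned to 1000, was compared in fibroblasts, endothelial cells, macrophages and pericytes by exact two-sided permutation tests over the mice, 24 tests in all. Rmst was found in 0.403% ± 0.0876 of WT and 0.0302% ± 0.0276 of Taz-KO fibroblasts (unthinned 2.08% and 0.184%, at a median of 5391 and 3480 UMIs), every Taz-KO mouse below every WT mouse (exact permutation test, p = 0.0286, adjusted p = 0.0298). The same p, the smallest that 4 mice against 4 allow, came from 23 of the 24 tests, and says only that the mice did not overlap. Of all genes tested in each type, every Taz-KO mouse was below every WT mouse in this share in 1.86% in fibroblasts, 1.84% in endothelial cells, 2.67% in macrophages and 1.96% in pericytes. Gm30382 in endothelial cells gave 0.0857 (5.71% ± 2.09 and 2.92% ± 0.933). The mean WT shares in these types were all below those of the lowest-UMI barcodes in WT (1.02% ± 0.272 for Rmst). The part of free RNA in them was not tested.

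The levels left in Taz-KO cardiomyocytes were set against the lowest-UMI barcodes of each library. Gm20757, Gm26862, Gm24474, Gm19689 and Gm30382 were higher in the cardiomyocytes in 4 of 4 Taz-KO mice, and Rmst in 3 of 4. The exception was Taz-KO 4685, with 1.31 CPM of Rmst in cardiomyocytes (7 UMIs) and 4.18 CPM in the lowest-UMI barcodes (3 UMIs), on few counts in both. In the other 3 mice Rmst was at 2.81 to 3.88 CPM in cardiomyocytes and at 0 to 1.16 CPM in the lowest-UMI barcodes. For Gm26862 the values over the 4 mice were 12.96 to 18.8 and 1.39 to 10.1 CPM, and for Gm30382 99.9 to 151 and 16.7 to 41.8 CPM. Both ends of the lowest-UMI range of Gm26862 rest on few counts. They came from Taz-KO 4685 and 5301, with 349 and 557 such barcodes.

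The genes around the 6 RNAs were examined for whether the fall reached beyond them. Within 500 kb of their ends lie 93 other annotated genes, of which 44 could be tested in cardiomyocytes, and 16 of these were lower and 5 higher in Taz-KO at an adjusted p below 0.05 from edgeR, against 6.11% lower and 8.56% higher of all genes. Their median log2 fold change was -0.35, that of all genes -0.01. The 6 neighbours that overlap 1 of the RNAs by the GENCODE ends were all lower, and among the 38 that do not, 10 were lower and 5 higher (median log2 fold change -0.18). Some neighbours lay near the filter on low counts, which a gene can pass through its level in 1 genotype alone. Among the lower ones, Gm45037, Gm29052, Gm31592, Gm44947 and Gm48866 were at 0.369 to 1.04 CPM in WT. In Taz-KO these were at 0.0911 to 0.326 CPM. Ddias, among the higher ones, was at 0.420 CPM in WT and 1.17 CPM in Taz-KO. The counts of lower and higher neighbours are thus a description.

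Around Rmst and Gm20757, the lncRNAs 4930401A07Rik, 25.6 kb upstream of Gm20757 on the other strand (log2 fold change -2.55 with a standard error of 0.39, adjusted p = 0.00134 from edgeR), and Gm31592, 117 kb downstream of Rmst (-1.69, adjusted p = 0.0233 from edgeR), were lower. Nedd1, a protein-coding gene of the centrosome that lies 309 kb upstream of Gm20757, had a log2 fold change of -0.37, and Cfap54, 400.2 kb upstream, of -0.50 (adjusted p = 0.210 and 0.323 from edgeR).

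In and around Gm26862 genes moved both ways. Gm9934 and Fam181b, inside it, were lower (log2 fold changes -2.84 and -2.26), as were Gm44947 and Gm45037, 186 kb and 257 kb downstream (-2.58 and -2.89). On the upstream side Ddias, Ankrd42 and Gm26981 were higher (1.49, 1.11 and 1.02), and Prcp, a lysosomal carboxypeptidase 72.4 kb away, had a log2 fold change of -0.13, and Rab30, 162 kb away, of -0.39 (adjusted p = 0.692 and 0.294 from edgeR). Gm44947, Gm45037 and Ddias were at 0.989, 0.369 and 0.420 CPM in WT, so their values rest on few counts.

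Gm32369 and Gm48866, inside Gm24474, had log2 fold changes of -3.33 (standard error 0.38) and -2.80, and Gm40437, 35.4 kb downstream, -1.40. Tmx1, which encodes a thioredoxin-related protein of the endoplasmic reticulum and lies 182 kb upstream, was lower as well, at 64.9 CPM in WT (log2 fold change -1.29 with a standard error of 0.29, adjusted p = 0.0144 from edgeR). Farther downstream Tomm20l, at 418 kb, and Timm9, a chaperone of mitochondrial protein import at 429 kb, were higher (1.68 and 0.57). Nearer, Frmd6 had a log2 fold change of -0.44 and Gm10457 of 2.57 (adjusted p = 0.194 and 0.0938 from edgeR), the latter at 0.422 CPM in WT.

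Gm46606, 19.6 kb upstream of Gm19689 on the same strand, fell by 3.19 on the log2 scale (standard error 0.40, adjusted p = 4.57e-04 from edgeR), Gm29052, which overlaps Gm19689, by 1.69, and Pkdcc, a secreted kinase 137 kb upstream, by 0.63. Eml4 and Cox7a2l, farther upstream, had log2 fold changes of -0.11 and -0.16 (adjusted p = 0.729 and 0.634 from edgeR). Around Gm30382, Gm10287, 58.7 kb downstream, fell by 1.94, Gm5149, inside it, by 0.84 and Adgrl2, an adhesion receptor 294 kb downstream, by 0.83 (adjusted p = 8.99e-04, 0.0478 and 0.0304 from edgeR). The longer RefSeq model of Gm30382 (chr3:149181187-149445599) contains Gm10287 on the same strand, so Gm10287 lies outside Gm30382 by the GENCODE ends only. Gm31121 and Gm43573 had log2 fold changes of -0.24 and -0.42 (adjusted p = 0.732 and 0.327 from edgeR).

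**Figure D4:**
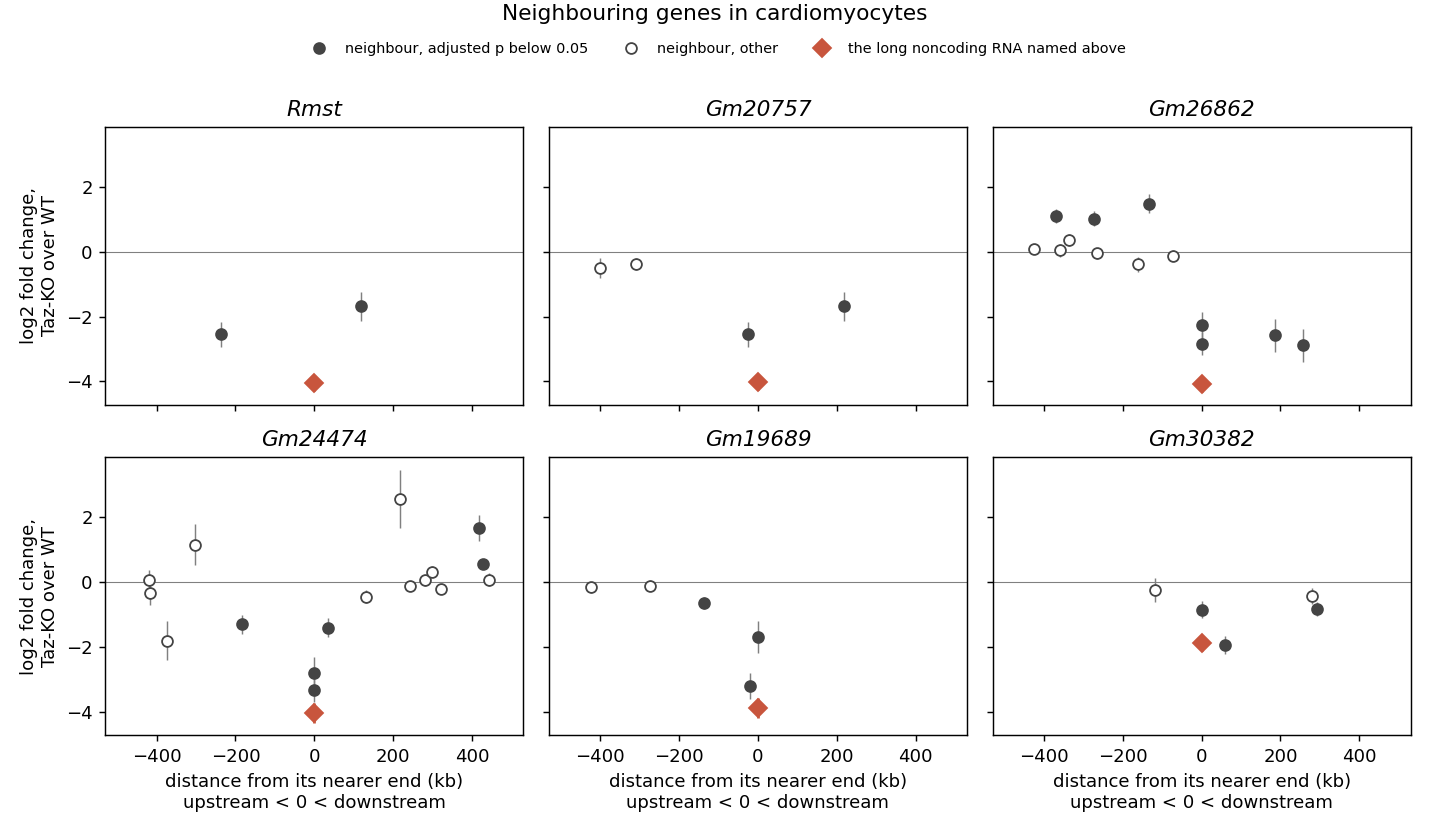
Log2 fold change (Taz-KO over WT, with its standard error) of the genes within 500 kb of each RNA in cardiomyocytes against the distance from its nearer end (0 where they overlap), upstream to the left. Filled points have an adjusted p below 0.05 from edgeR, and the diamond is the RNA itself. Low points lie both near the diamond, as with Gm46606 at -3.19, 19.6 kb upstream of Gm19689, and far from it. A far one is Gm45037 at -2.89, 257 kb downstream of Gm26862, which was at 0.369 CPM in WT and rests on few counts.

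Among the other long noncoding RNAs more rose than fell. Of 3548 other annotated lncRNAs tested in cardiomyocytes, 248 (6.99%) were lower and 626 (17.6%) higher in Taz-KO at an adjusted p below 0.05 from edgeR, with a median log2 fold change of 0.26, against 5.87% lower, 6.42% higher and a median of -0.04 for protein-coding genes. A log2 fold change of -3 or lower was found in 17 of these lncRNAs and in 46 of all 18501 genes. Among 37 listed lncRNAs with known names, 32 were tested and 6 passed: Pvt1, the neighbour of Myc, rose from 32.7 ± 5.44 to 346 ± 106 CPM (log2 fold change 3.41 with a standard error of 0.25, adjusted p = 8.96e-06 from edgeR), Trp53cor1, a target of p53, by 1.64 on the log2 scale, Snhg12 and Gas5, hosts of small nucleolar RNAs, by 1.22 and 0.77, and Kcnq1ot1, of an imprinted locus, by 0.98. Mir100hg, the host of miR-100, was the 1 lower gene of the 32 that passed, and fell by 1.36 (adjusted p = 6.99e-04 from edgeR). Malat1, Neat1 and Mir99ahg, at the highest levels, had log2 fold changes of 0.21, -0.19 and 0.14 (adjusted p = 0.732, 0.625 and 0.772 from edgeR).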

How the data were processed

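Single-nucleus libraries of 8 whole hearts (10x Genomics) were analysed. The authors made the deposited UMI counts per gene and barcode with Cell Ranger, with intronic reads counted, on the mm10 reference; no normalization had been applied, and the counting strand is not given in the sources used here. From these counts, barcodes with at least 800 non-mitochondrial UMIs and 250 genes were kept and 16231 putative doublets removed with simulated doublets. Nuclei were clustered (15 principal components, Harmony-type integration over libraries, 20 neighbours, Leiden resolution 0.9) without the 6 RNAs among the variable genes. Of 39 clusters, 21 were named from marker lists, by a rule set after the marker scores had been seen, and 39517 nuclei stayed unnamed, among them 3 clusters with all 7 cardiomyocyte markers raised and a second type's score too high. Sums of UMIs over the nuclei of a type in each mouse entered edgeR 4.0.16 (R 4.3.3; filterByExpr, TMM, quasi-likelihood, robust), with Benjamini-Hochberg adjustment over all genes tested. DESeq2 1.42.0 was an alternative. The test over single nuclei that the study used (MAST) and its correction for free RNA (SoupX) were not applied: the nuclei of a mouse are not replicates, and free RNA was left in the counts except in 1 alternative. Shares of nuclei were thinned to 1000 UMIs by expectation, and compared by exact permutation over mice. Depth was 20025456 to 348080773 UMIs per library.

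The 6 RNAs and all gene lists were chosen with earlier results of these data known. Named neighbours are those within 500 kb at an adjusted p below 0.05 and the 2 nearest other tested genes per RNA. Named listed lncRNAs are those past that threshold and the 3 with the highest CPM, and the 5 genes most alike by Pearson's r are named for each RNA, apart from 1 that is not reported here. Gene annotation is GENCODE vM21, in which 99.6% of the features matched. Alternatives changed the test, scaling, filter, libraries, doublets, shared barcodes, resolution, free RNA (a share of 0.2 subtracted) and cell calling (a gate on marker UMIs).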

Additional observations from a re-analysis of the deposited data

Results flagged for a closer look

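In 12 groups of 4 mice (6 RNAs, cardiomyocytes of each genotype), 2 values stood apart by Dixon's test, which flags about 1 group in 20 by chance. Gm26862 in Taz-KO 5301 was the highest of its group, at 21.0 CPM (gap over range 0.927). Gm19689 in Taz-KO 4685 was the lowest, at 0.853 CPM (gap over range 0.833), on 5 UMIs.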

How the results depend on the processing

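The number of genes that differed in cardiomyocytes was 2714 in the fit reported and 1781 with free RNA subtracted, and 1890 to 2524 with single mice left out. The calls of the 6 RNAs outside cardiomyocytes numbered 23 in the fit reported, 3 with free RNA subtracted, 7 with cell types gated on marker UMIs (no fit could be made for mesothelial cells, lymphatic endothelial cells and adipocytes) and 4 to 26 with single mice left out. Calls over all genes changed as well: in fibroblasts, endothelial cells and macrophages they numbered 72, 66 and 56 in the fit reported. They were 0, 8 and 0 with free RNA subtracted, and 7 to 141, 11 to 175 and 3 to 216 with single mice left out. With single mice left out the calls among neighbours numbered 16 to 18 and among listed lncRNAs 5 to 8. That the 6 RNAs did not overlap between genotypes in cardiomyocytes follows from their choice, and leaving out mice cannot change it, so it is no sign of stability. Over all alternatives the log2 fold change in cardiomyocytes ranged from -4.28 to -3.69 for the first 5 RNAs and from -2.03 to -1.73 for Gm30382. No paired analysis was made, since the labels used here give no litter or batch by which a WT mouse could be paired with a Taz-KO mouse. A batch could not be assessed for the same reason. Depth limits Rmst and Gm19689 most, with as few as 7 and 5 UMIs in the cardiomyocytes of a Taz-KO mouse.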
